A study of Mus musculus with 6 samples.

Results

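Cells from the knee synovium of healthy mice lacking Notch3 (Notch3-/-) were compared with cells from healthy wild-type mice. All cells of these 2 libraries in which mitochondrial transcripts made up at most 10% of the counted molecules were taken, which gave 5000 knockout and 2917 wild-type cells, 7917 of the 18491 such cells in the 6 libraries of the study. Each library held the pooled, enzymatically dissociated synovium of 10 mice, sorted for live cells without selecting a cell type, and RNA was counted by droplet sequencing as unique molecular identifiers (UMIs), 1 per captured RNA molecule. Neither pool had received arthritogenic serum or an antibody. The other 4 libraries came from mice made arthritic with K/BxN serum, which were wild type, Notch3-/-, given an isotype control or given an anti-Notch3 antibody. Sources used here do not give the part of Notch3 that the knockout removes, nor the strain, age or sex of the mice. Xist, the transcript of the inactive X chromosome, had 1 UMI in each library, while the Y-linked Ddx3y had 1839 and 3088. With 1 pooled library a side there was no replicate, so no test could be made: every difference is between these 2 libraries, and the 95% intervals (exact Poisson for levels, exact Clopper-Pearson for shares) cover counting error only.

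Notch receptors are surface proteins that, when bound by a Jagged or Delta-like ligand on a neighbouring cell, release an intracellular fragment that enters the nucleus and switches on target genes such as those of the Hes and Hey families. Notch3 is best known from mural cells, the pericytes and smooth muscle cells that wrap small vessels. The synovium has a thin lining of fibroblasts and macrophages, where fibroblasts make lubricin and hyaluronan for the joint fluid, above a sublining of vessels, other fibroblasts and resident macrophages.

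The libraries held 2977 and 5096 barcodes with a median of 7561 UMIs a cell in wild type and 4533.5 in knockout, and 29 barcode sequences occurred in both, 0.974% of the wild-type ones. After 118 predicted doublets were left out, 2896 wild-type and 4903 knockout cells remained, in 23 clusters. The libraries stood apart within the largest class: when fibroblasts were reclustered without the genes used below to define subtypes, 9 of 14 subclusters drew at least 90% of their cells from 1 library, and these held 83.4% of the fibroblasts. Such a difference in depth, library or genotype cannot be told apart with 1 library a side. Of the 10 fibroblast clusters, 3 drew at least 90% of their cells from the knockout library, and 1 of these, cluster 7 (12 wild-type and 470 knockout cells), was led by Ibsp, an osteoblast marker, and by the early-response genes Il6, Nr4a2, Nr4a3 and Tnfaip6. Cluster 5 (484 and 76 cells) was led by Adipoq, an adipocyte marker, and by Mmp3, Hp, Car3 and Chil1. The leading genes of clusters 4 and 14 included 1 marker of another class each, Tnmd of tendon and Rgs5 of mural cells. They also included genes of the gates described below, Myoc and Dkk2 in cluster 4 and the lining gene Clic5 in cluster 14. Cluster 2 (40 and 603 cells) held the lining genes Tspan15 and Prg4 among its leading genes. Because clusters 4, 5, 7 and 14 carried more markers of another class than of their own among their leading genes, fibroblast results are given for gated subtypes, and values without these 4 clusters, or without the 3 one-library clusters 2, 7 and 8, are given beside those they moved by over 1.5 times.

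Notch3 transcripts were near 0 in the library labelled knockout. Over all cells it stood at 4.98 counts per 1000000 UMIs (CPM; interval 4.11 to 5.98, 114 UMIs) in wild type and 0.298 CPM (0.12 to 0.615, 7 UMIs) in knockout. Its highest level was in wild-type mural cells, at 549 CPM (352 to 817) over 13 cells, where the 25 knockout mural cells held no Notch3 UMI, which allows up to 64.9 CPM. In fibroblasts it was 5.34 CPM (4.24 to 6.64) in wild type and 0.35 CPM (0.128 to 0.761) in knockout. The wild-type fibroblast UMIs were unevenly spread over the gates described below, in cells thinned to 2500 UMIs. Cells of the Ccl11 gate stood at 35.6 CPM and those of the Sfrp4 gate at 2.30 CPM. The lining gate held none, but its 94 thinned cells are too few to show that lining cells lack Notch3.

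The cell classes differed in proportion. Fibroblasts, recognised by collagen genes, Dcn and Pdgfra, made up 59.2% of wild-type cells (57.4 to 61.0) and 69.2% of knockout cells (67.9 to 70.5). Myeloid cells, mostly macrophages recognised by Csf1r and C1qa, made up 25.5% (23.9 to 27.1) and 17.8% (16.7 to 18.9). Cells led by the tendon genes Chad, Angptl7 and Fmod made up 2.31% (1.8 to 2.93) and 5.47% (4.85 to 6.14). Endothelial cells made up 5.15% (4.37 to 6.01) and 4.45% (3.89 to 5.06), with overlapping intervals; the ratio of 0.864, knockout over wild type, was 0.481 among cells with at least 2500 UMIs. Wild type and knockout held 83 and 14 B-lineage cells, 36 and 6 neutrophils, 19 and 1 erythroid cells, and 49 and 52 T or NK cells. Leaving the B-lineage, neutrophil and erythroid clusters out of the denominator brought the fibroblast ratio, knockout share over wild-type share, from 1.17 to 1.12. The shares are of cells that survived dissociation and sorting.

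**Figure D1:**
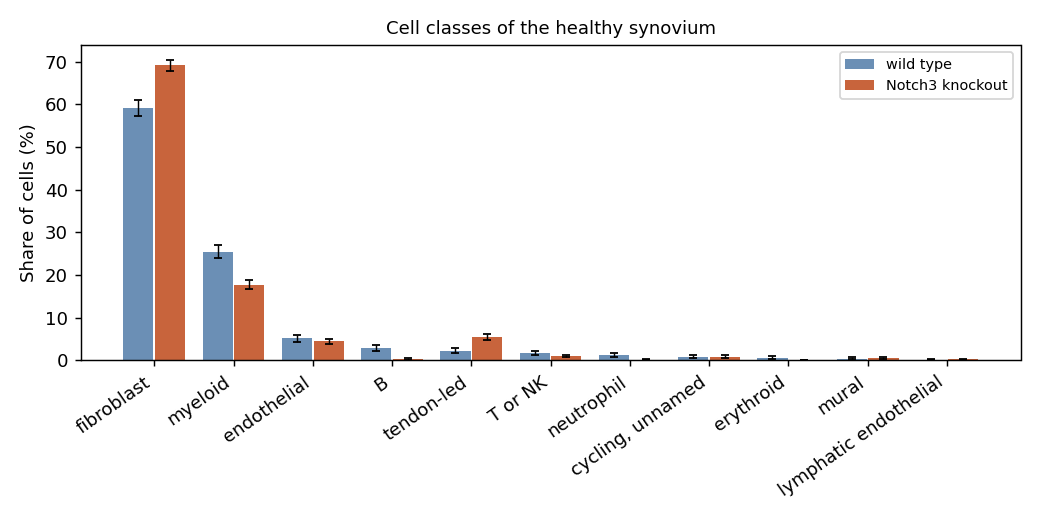
Share of cells (%) in each class for the wild-type and the Notch3 knockout library; bars are shares and whiskers exact 95% binomial intervals, which cover counting error only. Fibroblasts stood at 59.2% and 69.2%, myeloid cells at 25.5% and 17.8%.

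To separate the mix of fibroblast types from levels within them, each cell was thinned to 2500 UMIs and placed by small sets of gate genes, with at least 2 UMIs required. This left out 40 wild-type and 186 knockout fibroblasts of lower depth and kept 1674 and 3206. The lining gate used Clic5, Tspan15, Hbegf, Col22a1 and Rab37. The 4 sublining gates used Pi16 with Dpp4, Sema3c and Anxa3, Myoc with Dkk2 and Moxd1, Ccl11 with Smoc2, and Sfrp4 with Fbln7.

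The fibroblast mix differed most at the lining and at the Sfrp4 gate. Lining-gate cells were 5.62% of wild-type fibroblasts (4.56 to 6.83, 94 cells) and 27.7% of knockout fibroblasts (26.1 to 29.3, 887 cells). Sfrp4-gate cells were 52.0% (49.6 to 54.4) and 25.0% (23.5 to 26.5). The Ccl11 gate held 13.4% (11.8 to 15.2) and 8.95% (7.99 to 9.99). The Pi16 gate held 8.84% (7.52 to 10.3) and 11.5% (10.4 to 12.6). The Myoc gate held 7.89% (6.64 to 9.28) and 9.3% (8.31 to 10.4), with overlapping intervals. The same gates were passed by 0.987% and 1.48% of wild-type and knockout myeloid cells for the lining and by at most 0.705% for Myoc, Ccl11 and Sfrp4, but by 7.33% and 7% for Pi16, so the Pi16 share lies near its background.

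The gate genes of the lining cells, which the gate itself selects on, are given per gated cell. Clic5, a chloride channel family protein, stood at 2.89 UMIs a gated cell in wild type and 2.92 in knockout, and Hbegf, a growth factor of the EGF family, at 9.8 and 10.9. Tspan15, a tetraspanin, stood at 1.94 and 2.17, and Col22a1, a collagen of tissue junctions, at 1.18 and 1.32. Rab37, a small GTPase, was low in both, at 0.0851 and 0.158. The lining ratio stayed between 4.89 and 5.04 when any 1 gate gene was left out, and it was 2.74 when cells were chosen by at least 50 UMIs of Prg4 alone. It was 7.5 without clusters 4, 5, 7 and 14 and 4.81 without the one-library clusters. Clusters 2, 4 and 14 have gate genes among their leading genes, so leaving them out also takes cells from the lining and Myoc gates. Without the one-library clusters the Pi16 ratio went from 1.3 to 2.09 and the Ccl11 ratio from 0.666 to 0.389, and the Myoc ratio of 1.18 was 2.38 without clusters 4, 5, 7 and 14. In the Sfrp4 gate the gate gene Sfrp4, a secreted Wnt-binding protein, was itself lower per cell, at 3.53 and 2.11 UMIs, and Fbln7, a matrix fibulin, at 4.38 and 3.5, so its share there depends in part on the level of its own genes.

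**Figure D2:**
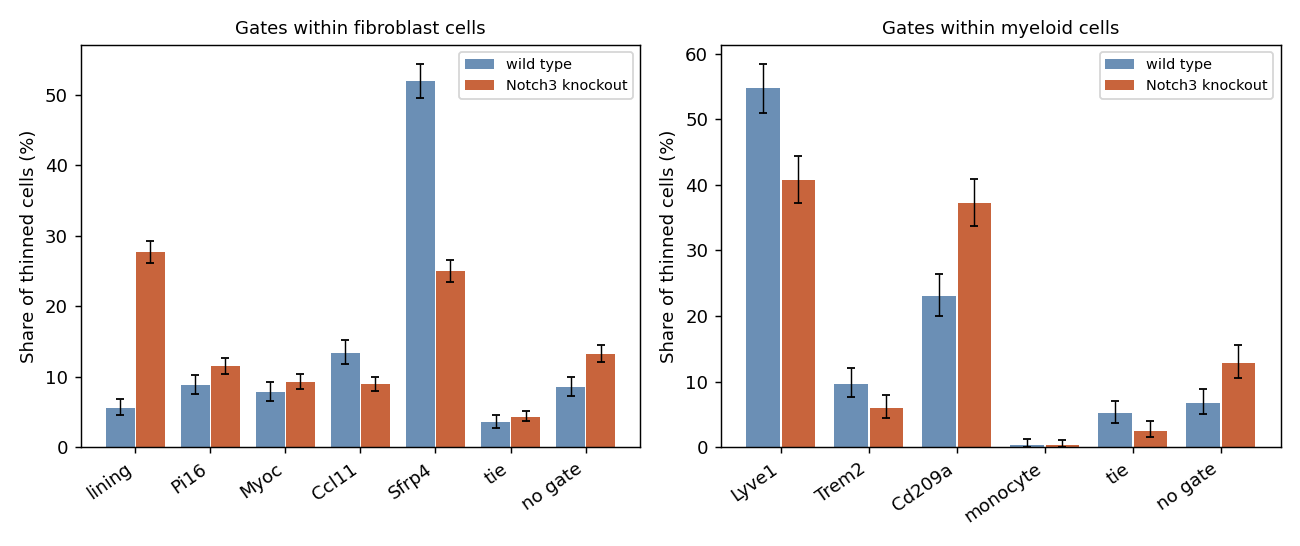
Share of thinned fibroblasts (left) and myeloid cells (right) in each gate (%), wild type beside knockout, with exact 95% binomial intervals; tie and no gate are cells with equal or too few gate UMIs. The lining gate held 5.62% and 27.7% of fibroblasts, and the Sfrp4 gate 52.0% and 25.0%.

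Across whole fibroblasts, 11358 genes had at least 50 UMIs over both libraries, and 24.7% of them differed at least 1.5-fold between the libraries, 992 (8.73%) higher and 1813 (16.0%) lower in knockout. Scaled by median of ratios, a shift of -0.115 on the log2 scale, the counts were 1324 and 1332. Without the one-library clusters they were 773 and 1712, and without clusters 4, 5, 7 and 14 they were 986 and 1566. For each gene the log2 ratio in thinned cells was then split: the within part sets knockout levels at the wild-type gate mix, and the mix part is the rest. Of 9565 genes outside the gate sets, 24.0% were past the fold in thinned fibroblasts, 8.01% higher and 16.0% lower. By the within part the shares were 5.61% and 19.1%, and by the mix part 2.89% and 0.136%, or 3.02% in all. The 537 higher and 1828 lower genes by the within part became 1395 and 2965 when subtypes were drawn as subclusters made without the gate genes, and the 276 and 13 by the mix part became 2667 and 1538. Without the one-library clusters the mix part held 133 higher and 22 lower genes, and without clusters 4, 5, 7 and 14 it held 34 lower. Of 7284 genes with enough UMIs in at least 2 gates, 834 were higher and 1892 lower in each gate measured. These stand beside the counts of gates below but take in genes measured in only some gates. The same count for genes measured in every gate was not made. Of the 766 genes higher in the class, 461 (60.2%) were past 1.5-fold within gates, as were 1291 (84.2%) of the 1534 lower ones.

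Of 15 genes of the lining list, 9 were higher and 1 lower in whole fibroblasts, set against the 8.73% and 16.0% of all genes, and the list shares 5 members with the gate. Apart from the gate genes, the list's differences lay mostly in the mix. Its median over 10 members was 0.44 in thinned fibroblasts, -0.19 within gates and 0.63 by mix, beside -0.12, -0.18 and 0.05 over all 9565 genes. Prg4, which encodes lubricin, was 1.32 higher in thinned fibroblasts on the log2 scale, with a within part of -0.27 and a mix part of 1.59. Inside the lining gate its level was 97790 CPM in wild type (96530 to 99060) and 66340 CPM in knockout (66010 to 66680). These are levels summed over gated cells. Whether lining cells carried less each, or the knockout gate held more cells low in Prg4, was not tested. The within part of Prg4 was -0.62 with subclusters, -0.16 without clusters 4, 5, 7 and 14 and -0.18 without the one-library clusters. Itga6, a laminin-binding integrin, divided into 0.41 within (0.63 without clusters 4, 5, 7 and 14) and 1.76 by mix, and its lining-gate levels of 119 CPM (79.2 to 172) and 162 CPM (146 to 180) had overlapping intervals. Cd55, a complement regulator of lining cells, divided into -0.16 and 1.08. Htra4, a secreted serine protease, and Hspb7, a small heat-shock protein, had within parts of -0.97 and -1.18 against mix parts of 1.63 and 1.41; Htra4 was lower in 2 of 4 gates, the lining among them. Fn1, fibronectin, divided into 0.13 within and 0.87 by mix.

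Has1, a hyaluronan synthase, departed from that pattern. It was 2.02 higher in thinned fibroblasts, of which 1.83 was within gates (1.13 with subclusters), and it was higher in 5 of 5 gates. Its lining-gate level was 753 CPM (646 to 873) in wild type and 1962 CPM (1904 to 2021) in knockout, and its Ccl11-gate level 139 and 1175 CPM. Ugdh, which makes the hyaluronan precursor UDP-glucuronate, had a within part of 1.68 and was also higher in 5 of 5 gates. Has2, another hyaluronan synthase, had a within part of -0.40.

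**Figure D3:**
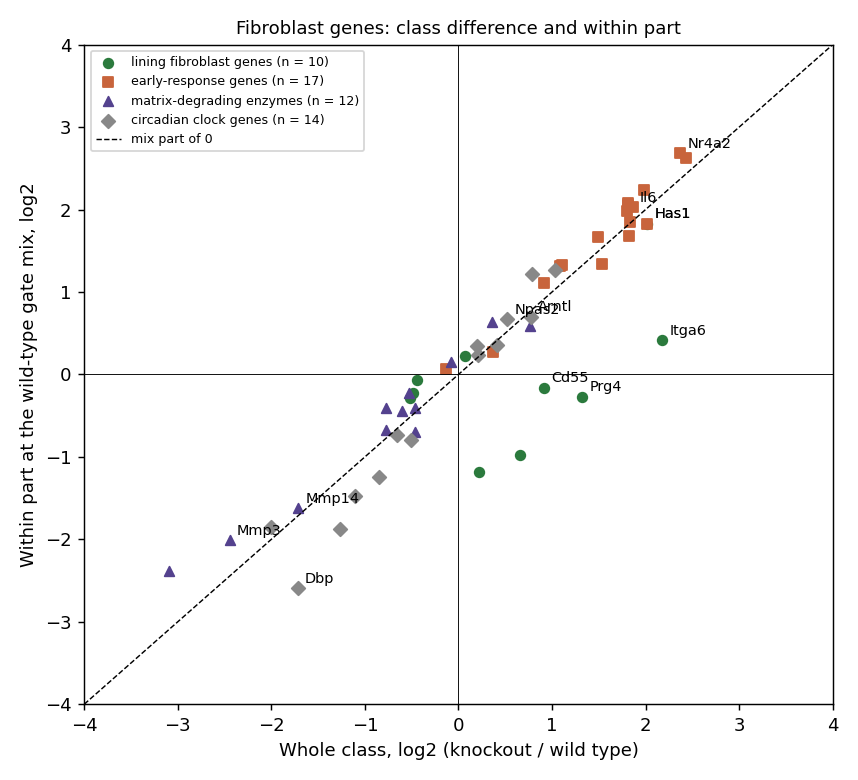
Fibroblast genes of 4 lists by log2 ratio over all thinned fibroblasts, knockout over wild type (x axis), and within part at the wild-type gate mix (y axis); points on the dashed line have a mix part of 0. Prg4, Cd55 and Itga6 lie well right of the line near a within part of 0, while Has1, Il6, Mmp3 and Mmp14 lie close to it.

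Early-response genes, induced quickly by cytokines, growth factors or tissue handling, were listed after their values were seen, so their counts describe the choice and support nothing. Of 17 measured members, 15 were past 1.5-fold higher in knockout fibroblasts and 0 lower, and the same 15 of 17 were higher by the within part. Their median was 1.74 in whole fibroblasts and 1.83 within gates. Without clusters 4, 5, 7 and 14 the within part still placed 15 higher, and without the one-library clusters 14. Il6, the cytokine interleukin 6, stood at 38.3 CPM (17.5 to 72.7) in wild-type and 206 CPM (187 to 225) in knockout lining-gate cells, and at 148 and 994 CPM in the Ccl11 gate. Its within part was 2.03, which was 1.17 without the one-library clusters and 0.99 with subclusters. Nr4a2, an orphan nuclear receptor of early response, stood at 61.2 CPM (51.2 to 72.5) and 408 CPM (380 to 436) in the Sfrp4 gate and had a within part of 2.68 (1.25 with subclusters). Tnfaip6, a hyaluronan-binding protein, had a within part of 2.08, Maff, a small Maf factor, 2.06, Fosl2, an AP-1 subunit, 1.98, and Klf2, a Kruppel-like factor, 1.85. All of these were higher in 5 of 5 gates. Cebpb, a leucine-zipper factor, stayed under the fold at 0.07. Beside this, 16 genes known to respond to dissociation summed to 24520 CPM in wild-type and 33510 CPM in knockout fibroblasts. Of these 16, 5 were higher and 1 lower, beside 8.73% and 16.0% of all genes. By the within part 5 were also higher and 1 lower, beside 5.61% and 19.1% of all genes. Atf3, Ier2, Zfp36 and Nr4a1, which is on both lists, were among the higher. The part of tissue handling in the early-response differences was not tested.

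Of 14 measured matrix-degrading enzymes, 7 were lower and 2, Mmp16 and Adamts9, higher in whole fibroblasts, beside 16.0% and 8.73% of all genes. By the within part 5 of 12 were lower and 1, Adamts4, higher, beside 19.1% and 5.61% of all genes. The higher count was 2 without clusters 4, 5, 7 and 14 and 0 without the one-library clusters. Mmp14, a membrane-bound collagenase that activates other metalloproteinases, was lower in 5 of 5 gates with a within part of -1.62 (-0.53 with subclusters). Its levels were 128 CPM (86.1 to 182) in wild-type and 44.2 CPM (35.9 to 53.9) in knockout lining-gate cells, and 158 and 58.4 CPM in the Sfrp4 gate. Mmp3, stromelysin, which also led cluster 5, had a within part of -2.01, and its Sfrp4-gate level was 356 CPM (332 to 382) against 70.9 CPM (59.7 to 83.6). In the lining gate Mmp3 was near its floor in both libraries, at 17 and 6.76 CPM with overlapping intervals. Adamts5, an aggrecanase, had a within part of -0.70 and was lower in 5 of 5 gates. Ctsk, cathepsin K, stayed under the fold at -0.40.

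**Figure D4:**
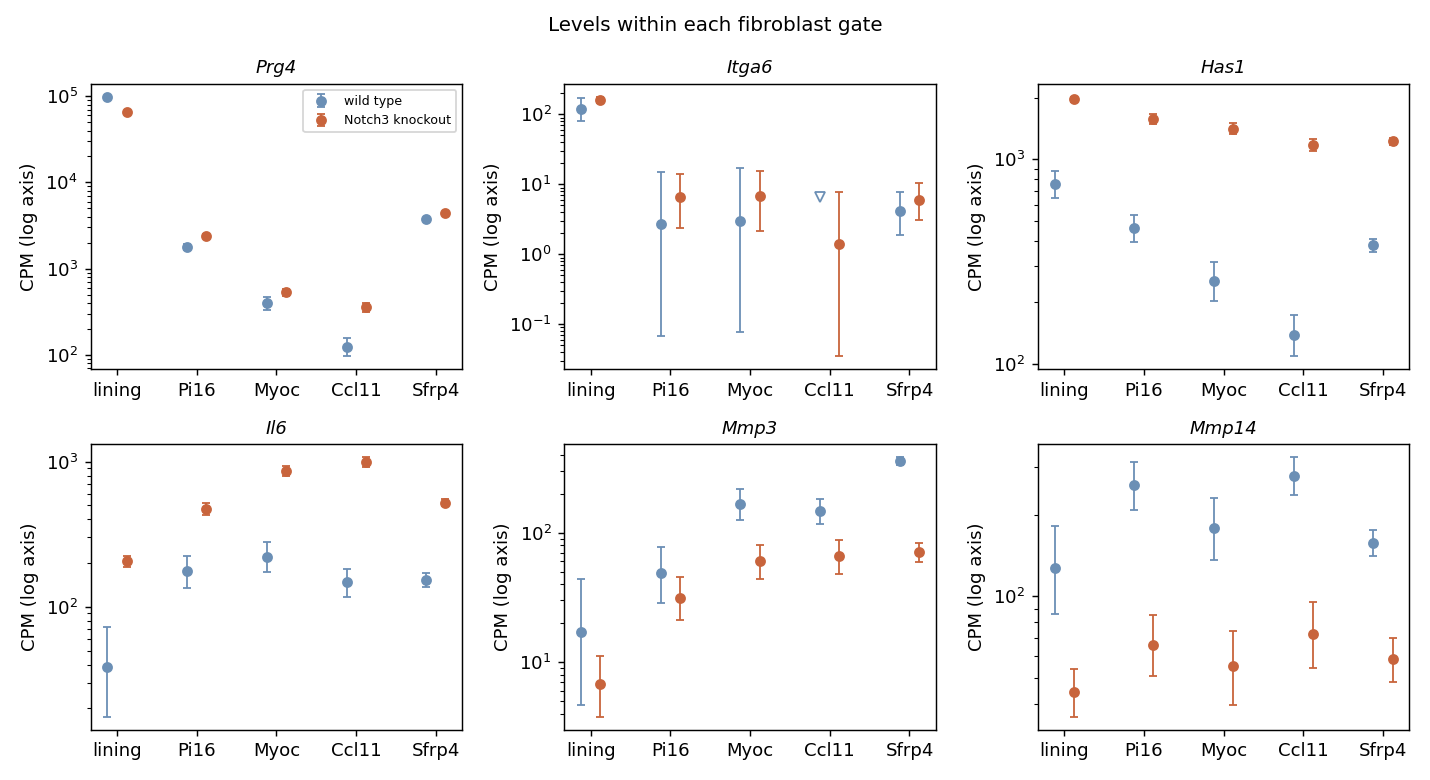
Level (CPM, log axis) of 6 genes in thinned fibroblasts of each gate, wild type beside knockout, with exact 95% Poisson intervals; an open triangle marks the upper limit where no UMI was found. Has1 and Il6 are higher and Mmp14 lower in each of the 5 knockout gates, while Prg4 is lower in the lining gate, at 66340 against 97790 CPM.

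Upstream sequences are printed for Has1, Il6 and Mmp3 because they differed within gates, the first pair higher and the last lower, and for Tef of the clock list. Each is the 250 bases before the RefSeq start site (GRCm38.p6), 5′ to 3′ on the gene's strand, with capitals marking the motif. Has1 is at chr17:17855189-17855438 on the minus strand, and Il6 at chr5:30012864-30013113, Mmp3 at chr9:7445572-7445821 and Tef at chr15:81802423-81802672 on the plus strand. Capitals mark TGACGTCA, a cAMP response element, in Has1, TGANTCA, the AP-1 site, in Il6 and Mmp3, and CACGTG, the E-box bound by clock factors, in Tef. Tef has 2 start sites in the RefSeq table, of which the first is shown, and the GENCODE gene begins within 2 bases of that window's start.
Has1: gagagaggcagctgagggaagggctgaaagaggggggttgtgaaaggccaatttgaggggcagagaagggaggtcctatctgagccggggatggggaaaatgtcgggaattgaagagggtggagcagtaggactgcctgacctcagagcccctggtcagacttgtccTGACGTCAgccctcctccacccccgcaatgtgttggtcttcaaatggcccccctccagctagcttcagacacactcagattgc
Il6: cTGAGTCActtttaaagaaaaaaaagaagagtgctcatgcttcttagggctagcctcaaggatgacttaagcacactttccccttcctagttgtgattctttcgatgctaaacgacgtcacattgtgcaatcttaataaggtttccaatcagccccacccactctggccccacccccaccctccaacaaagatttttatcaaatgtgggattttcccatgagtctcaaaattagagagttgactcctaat
Mmp3: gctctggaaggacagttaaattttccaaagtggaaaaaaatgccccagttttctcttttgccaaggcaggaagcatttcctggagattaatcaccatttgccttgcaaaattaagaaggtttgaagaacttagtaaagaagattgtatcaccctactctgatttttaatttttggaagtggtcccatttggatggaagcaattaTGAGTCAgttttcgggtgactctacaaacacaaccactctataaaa
Tef: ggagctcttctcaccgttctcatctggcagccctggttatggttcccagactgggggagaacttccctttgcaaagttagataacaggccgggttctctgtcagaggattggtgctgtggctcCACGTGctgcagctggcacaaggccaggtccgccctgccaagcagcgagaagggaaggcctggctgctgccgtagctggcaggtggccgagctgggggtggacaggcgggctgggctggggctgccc
Both strands were searched, and each window held 1 match of the motif named for it. Of 32851 promoters, 1.55% held TGACGTCA, 6.75% TGANTCA and 6.02% CACGTG. These shares are per promoter, while the list counts are per gene and include a gene if any of its promoters held the motif. The units are thus unlike, and a gene with several promoters has more chances to be counted. Among genes with a promoter entry, TGACGTCA was in 3 of 16 early-response genes (Errfi1, Has1 and Maff), and TGANTCA in 3 of 16 of them (Il6, Lif and Tnfaip6) and 2 of 8 matrix-degrading enzymes (Mmp3 and Mmp13). The AP-1 letters were thus present before Il6, which was higher, and before Mmp3, which was lower. A match describes letters in the window and is not evidence of binding.

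Of 15 genes of the daily clock, a list also put together after values were seen, 6 were lower and 4 higher in whole fibroblasts, and these counts too only describe the choice. Dbp, Tef and Hlf, leucine-zipper output factors, and Nr1d1, Per3 and Bhlhe41, repressors of the clock, were the lower ones. Arntl and Npas2, which form the activating arm, and Cry1 and Nfil3 were the higher ones. Dbp stood at 236 CPM (228 to 243) in wild type and 73.9 CPM (69.9 to 78.1) in knockout fibroblasts, was lower in 5 of 5 gates and had a within part of -2.59. Because lining-gate cells held the highest Dbp level of the 5 gates, 413 and 148 CPM, its mix part was 0.87 in the other direction. Arntl stood at 5.14 CPM (4.07 to 6.42) and 12.8 CPM (11.1 to 14.6). Dbp was lower in the other classes too, at -1.31 in myeloid and -1.34 in tendon-led cells, and stood at 135 and 66.9 CPM in endothelial cells, whereas Nr1d1 was -1.12 in myeloid and 0.46 in tendon-led cells. CACGTG was found before 5 of 14 clock genes with an entry, Bhlhe41, Ciart, Cry1, Per1 and Tef. Sources used here do not give the hour of collection.

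**Figure D5:**
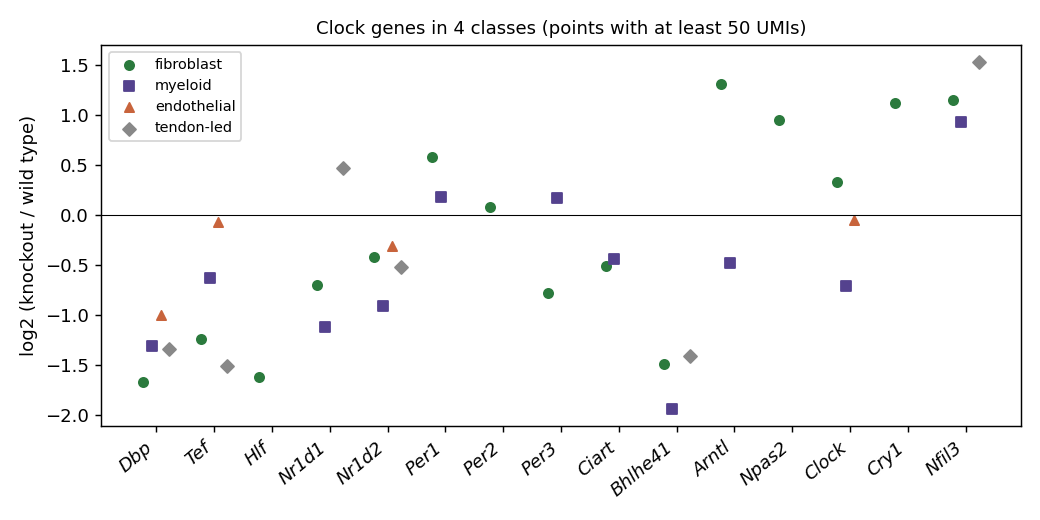
Log2 ratio, knockout over wild type, of the 15 clock genes in 4 classes, for genes with at least 50 UMIs in the class. Dbp lies below 0 in each class, at -1.67 in fibroblasts, and Arntl lies above 0 in fibroblasts at 1.31 and below in myeloid cells at -0.48.

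The remaining groups in fibroblasts were mixed. Cxcl13, which attracts B cells, was -2.27 within gates (-0.96 with subclusters) and lower in 4 of 4 gates with enough UMIs, at 150 CPM (134 to 167) and 14.5 CPM (9.7 to 20.8) in the Sfrp4 gate. Of 13 chemokines measured, 6 were higher and 3 lower within gates, beside 5.61% and 19.1% of all genes, and the higher ones included Cxcl1, which draws neutrophils, at 0.97, and Ccl2 and Ccl7, which draw monocytes, at 1.26 and 1.05. Tnfsf11, RANKL, the signal for osteoclast formation, was 10.9 CPM (9.34 to 12.7) in wild-type and 1.4 CPM (0.896 to 2.08) in knockout fibroblasts. Its decoy receptor Tnfrsf11b stood at 1.45 CPM (0.909 to 2.2) and 5.07 CPM (4.06 to 6.25). Both are levels over whole fibroblasts, which include the difference in mix. By the within part 0 of 4 measured RANKL-axis genes were higher and 3, Tnfsf11, Csf1 and Acp5, were lower, beside 5.61% and 19.1% of all genes. In tendon-led cells Tnfrsf11b was among the 10 lowest genes. Of 18 collagen and matrix genes, 5 were past the fold, beside 24.7% of all genes, 2 higher and 3 lower, with Lox, a collagen cross-linking enzyme, at -1.64, and the collagen chain Col1a1 at -0.01 within gates. Tgfb2, a transforming growth factor, was -0.93 within gates and Inhba, an activin subunit, 1.14, higher in the Sfrp4 gate and lower in the lining gate.

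Among Notch genes, Notch2, a related receptor, was higher in 5 of 5 fibroblast gates with a within part of 0.75, at 30.8 CPM (28.1 to 33.7) and 54.1 CPM (50.7 to 57.7) in whole fibroblasts. Jag1, a Notch ligand, was 16.1 and 14.4 CPM, with overlapping intervals. None of the 5 measured target genes of the list passed 1.5-fold in fibroblasts, beside 24.7% of all genes. With 5 genes measured, a count of 0 says little against that share. Hes1, a repressor and classic Notch target, had a within part of -0.53, beside a median of -0.18 over all genes, and was lower in 5 of 5 gates.

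The genes apart most in fibroblasts by the within part included several that moved with RNA of other cells. H2-Ab1 and H2-Aa, MHC class II chains, had within parts of 2.37 and 2.54, and Retnla and Pf4, macrophage products, were also among the 10 highest; macrophage markers summed to 27.4 CPM in wild-type and 92.8 CPM in knockout fibroblasts, with 0 of 8 markers at 0 in either. Erythroid markers went the other way, from 443 to 4.31 CPM. Their part in these differences was not tested. Thbs1, a matrix glycoprotein, stood at 1.78 and 28.1 CPM in whole fibroblasts. Among the 10 lowest were C7, a complement component, at -3.58, Car3, a carbonic anhydrase, at -3.40, Chil1, a chitinase-like protein, at -3.11, and Hp, haptoglobin, at -2.13. Car3, Chil1 and Hp led cluster 5, and without clusters 4, 5, 7 and 14 Hp was at -0.94.

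Over all cells, some genes had nearly all of their UMIs in 1 library. Ifi202b, an interferon-inducible gene, had 817 UMIs in wild type and 1 in knockout, Hal, histidine ammonia lyase, 1627 and 0, and Gbp2b, a guanylate-binding protein, 159 and 0. The arthritic wild-type and knockout libraries gave 567 and 0, 204 and 5, and 129 and 0 for the same genes. The antisense transcript BC018473 repeated this, with 222 and 0 UMIs in the healthy pair and 157 and 4 in the arthritic pair. Several other genes nearly absent from the healthy knockout library did not. Chil3 and Ltf, which lead the neutrophil cluster, had 650 and 3 and 368 and 1 UMIs in the healthy pair. In the arthritic pair they had 503 and 946 and 221 and 477. Slc4a1, of the erythroid cluster, had 278 and 0, then 0 and 29. Within 5 Mb of Notch3 on chromosome 17, 163 genes were measured in fibroblasts, 13 higher and 25 lower, or 23.3% past the fold, near the 24.7% of all genes. Of 145 of them measured in both genotype pairs, 8 passed the fold in the same direction in both. The same share over all fibroblast genes was not computed, so this count has no background to be read against. The class II genes H2-Aa, H2-Ab1 and H2-Eb1 lie in this window.

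Myeloid cells differed first in mix. Lyve1-gate macrophages, resident cells that also carry Vsig4, Folr2 and Timd4, were 54.7% of wild-type myeloid cells (51.0 to 58.4) and 40.8% of knockout ones (37.2 to 44.4). The Cd209a gate, cells rich in MHC class II, held 23.1% (20.1 to 26.4) and 37.3% (33.8 to 40.9), and the Trem2 gate 9.73% (7.65 to 12.2) and 6.06% (4.45 to 8.02). Of 8710 genes 34.6% were past the fold, 5.6% higher and 29.0% lower, and the median ratio was -0.33. With median-of-ratios scaling, a shift of -0.302, the counts of 488 higher and 2528 lower became 1016 and 1082, so the values below are read against that shift. Of 7 MHC class II genes, 4 were higher and 1, Ciita, lower in the class, and by the within part 0 were higher and 1, Ciita, lower, beside 4.37% and 18.6%, or 23.0% in all, of 6206 genes. In thinned cells H2-Aa was 0.62 higher, 0.08 of it within gates, and stood at 15620 and 15450 CPM in the Cd209a gate, although in the Lyve1 gate it was 222 and 681 CPM. Of 11 resident macrophage genes, 7 were lower and 0 higher. Mrc1, the mannose receptor, had a within part of -0.87 and a mix part of -0.30, and Gas6, a ligand for clearing dead cells, -0.58 and -0.42. Retnla, an alternative-activation product, stood at 214 CPM in wild-type and 1472 CPM in knockout Lyve1-gate cells. Il1b, the cytokine interleukin 1 beta, was 224 and 1768 CPM in the Cd209a gate, with a within part of 2.87. Hes1 was 83.7 and 19.9 CPM in whole myeloid cells. It was the 1 lower of 3 measured Notch target genes, with 0 higher, beside 29.0% and 5.6% of all genes. The median of the 3 was -0.35, beside -0.33 over all genes.

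Prg4, Has1 and collagen genes were also higher in the myeloid class, Prg4 at 25.1 and 807 CPM. Fibroblast markers summed there to 377 and 1493 CPM with 0 of 9 at 0, and their part was not tested. Isg15 and Irf7, interferon-stimulated genes, were 1.98 and 1.47 higher, and 8 of 13 genes of that list were higher with 0 lower, beside 5.6% and 29.0% of all genes. By the within part 4 of 8 were higher, Isg15, Irf7, Oasl2 and Bst2, and 0 lower, beside 4.37% and 18.6% of all genes. Ccl22, Ccl17 and Ccr7, all among the 10 highest, lead a small myeloid cluster of 2 wild-type and 12 knockout cells.

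In endothelial cells 3218 genes were measured, 23.6% past the fold, 9.42% higher and 14.2% lower. Of 8 capillary genes, 6 were lower and 0 higher. Gpihbp1, which anchors lipoprotein lipase on capillaries, stood at 1430 CPM (1330 to 1536) and 812 CPM (736 to 894), and Car4, a carbonic anhydrase, at 396 CPM (344 to 454) and 161 CPM (128 to 200). Hes1 was 710 CPM (640 to 786) and 376 CPM (324 to 433). Of 3 measured Notch target genes, 2 were lower, Hes1 and Ptp4a3, and 0 higher, beside 14.2% and 9.42% of all genes. Among cells deep enough to thin, 43 of 84 wild-type and 20 of 65 knockout cells passed the capillary gate, 51.2% (40.04 to 62.3) and 30.8% (19.9 to 43.5), but 13.9% and 34.3% of fibroblasts passed it too, so the knockout share lies at its background. Erythroid markers summed to 15900 CPM in wild-type endothelial cells and 7.87 CPM in knockout ones, and fibroblast markers to 830 and 3465 CPM. Of 15 measured dissociation genes, 10 were higher and 0 lower, summing to 21880 and 34260 CPM. Of 12 measured genes of the early-response list, chosen after values were seen, 11 were higher and 1 lower. The part of these in the endothelial differences was not tested.

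Tendon-led cells, 67 and 268, had 3981 genes measured, 24.9% past the fold, 11.6% higher and 13.4% lower. Sfrp2, a secreted Wnt modulator, had 0 UMIs in wild type, which allows up to 6.42 CPM, and 882 CPM in knockout, and Tnmd, tenomodulin, a tendon marker, stood at 12.2 CPM (4.9 to 25.1) and 353 CPM (323 to 386). Both genes also lead fibroblast cluster 4, while the 7 tendon markers, Tnmd among them, summed to 21680 CPM in wild-type and 14010 CPM in knockout tendon-led cells. Of 13 measured genes of the early-response list, chosen after values were seen, 10 were higher and 0 lower. Of 15 dissociation genes 10 were higher and 0 lower, with the list summing to 17970 and 29630 CPM, and their part was not tested.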

How the data were processed

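UMI counts per gene and cell were deposited by the authors as raw count matrices; they were made with Cell Ranger 3.0.2 on genome build mm10, per the submitters' processing notes, and sources used here do not state a filter on barcodes before deposit. The lowest number of genes in a healthy barcode was 501. Members and gene lists were chosen with earlier results of these data known, and the rule that names clusters was set after seeing them. Cells above 10% mitochondrial UMIs and Scrublet doublets (1.49% of the remaining cells) were left out. Cells were clustered jointly with scanpy 1.11.5 (2000 variable genes, 30 principal components, 20 neighbours, Leiden resolution 1) without Notch, stress, sex-linked, haemoglobin and other erythroid, mitochondrial, ribosomal and unnamed (Gm, Rik) genes, and named from fixed markers. Gates were applied to cells thinned to 2500 UMIs; the subclusters used beside them are Leiden clusters of fibroblasts made without the gate genes. 

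CPM and log2 ratios were computed from UMIs summed per class and library, with a pseudocount of 0.5 UMI. Genes needed 50 UMIs and were called at 1.5-fold. Named genes were the list members and the 10 highest and 10 lowest per class, by class ratio and, in fibroblasts and myeloid cells, also by within part (the rule fixed first named fibroblasts only). The split was tried on simulated counts drawn from gate means shared by both libraries, with the gate of each cell taken as known. It therefore covers counting error and the change of mix only, not wrong gating, RNA of other cells or library effects. With 100 genes doubled in fibroblasts (9580 genes), 97% passed the fold by the within part, and 3.52% of unchanged genes did. By the class ratio, 99% of raised and 96% of lowered genes did, with 7.04% of unchanged ones, and 7.31% in myeloid cells. Promoters came from RefSeq, with 16 of 18 early-response and 14 of 15 clock genes matched.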

Additional observations from a re-analysis of the deposited data

Results flagged for a closer look

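The 35 fibroblast genes ranked highest or lowest in the healthy pair, by class ratio or within part, were compared with the arthritic pair. Of them, 11 differed at least 1.5-fold in opposite directions between the healthy genotype pair and the arthritic one. These 35 genes were chosen for extreme healthy values, and the share over all genes was not computed, so the count describes the choice. All values here are log2 ratios, knockout over wild type, and each pair has 1 library a side, so the difference between pairs was not tested. Cxcl13 was -2.27 in healthy and 1.64 in arthritic fibroblasts, and the clock output gene Dbp -1.67 and 0.97. Thbs1 was 3.96 and -2.66, Nr4a3 2.36 and -0.76, Apold1 3.34 and -0.82, Rab20 1.98 and -0.93, and Calb2 3.44 and -3.72. The immune-cell genes Ccl5 (3.54 and -5.56), Wfdc17 (4.33 and -1.72), H2-Aa (2.51 and -0.67) and H2-Ab1 (2.70 and -0.69) did likewise.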

How the results depend on the processing

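No paired analysis was possible because each group is 1 pooled library. Of the alternatives to results that answer a comparison, 168 left a share ratio within its counting interval or a count of genes within 1.5 times of its value, and 54 did not. The Myoc gate ratio, 1.18 with an interval that spans 1, was 0.997 at a minimum of 4 UMIs. A mitochondrial maximum of 5% gave share ratios, knockout over wild type, of 1.23 for fibroblasts and 0.626 for myeloid cells. Leaving out the B-lineage, neutrophil and erythroid clusters, an alternative chosen after seeing the data, gave 1.12 for fibroblasts. Using cells of at least 2500 UMIs gave 0.481 for endothelial cells, and resolution 2 gave 1.62 for tendon-led cells. The lining gate ratio was 2.74 with Prg4 alone, also chosen after seeing the data. At 4 UMIs the Ccl11 gate ratio was 0.558 and the Sfrp4 gate 0.401, and thinned to 1500 UMIs the Sfrp4 gate was 0.445.

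For counts of genes higher and lower, 200 UMIs as minimum gave 604 and 1075 in fibroblasts, 214 and 1102 in myeloid and 97 and 67 in endothelial cells. A fold of 2 gave 474 and 576, 261 and 745, and 102 and 141. A minimum of 20 UMIs gave 791 higher in myeloid, and 631 and 1299 in endothelial cells. Thinned cells gave 313 and 1560 in myeloid and 159 and 187 in endothelial cells, where fewer genes are measured. Median-of-ratios scaling gave 1016 and 1082 in myeloid cells and 0 lower lining genes. With a fold of 2 there were 0 lower lining genes, 1 higher and 4 lower matrix-degrading enzymes, and 0 lower stress genes.

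The split depended on how subtypes were drawn. With Leiden subclusters made without the gate genes, 1395 genes were higher and 2965 lower by the within part, and 2667 and 1538 by the mix part; 12 of these 14 subclusters had fewer than 50 cells in 1 library. There the within parts were 0.99 for Il6, 1.13 for Has1, -2.19 for Mmp3, -0.53 for Mmp14 and -0.62 for Prg4, so each kept its direction. By the mix part 56 genes were lower with wild-type levels at the knockout mix and 34 in gated cells only. By the within part 2 lining genes were higher with subclusters.

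The following sets of fibroblast clusters were left out after seeing the data. Without clusters 4, 5, 7 and 14 the gate ratios were 7.5 for the lining, 2.38 for Myoc and 0.416 for Sfrp4, 34 genes were lower by the mix part, and by the within part 2 lining genes and 2 matrix-degrading enzymes were higher. Without clusters 2, 7 and 8 the ratios were 2.09 for Pi16, 1.54 for Myoc and 0.389 for Ccl11, 133 genes were higher and 22 lower by the mix part, and 0 matrix-degrading enzymes were higher by the within part. The cause of the other shifts was not tested.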
